A study of Mus with 3 samples.

Results

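The genes described are 10 components of acetylcholine signalling, taken by name: the choline acetyltransferase gene Chat, the choline transporter gene Slc5a7, the cholinesterase genes Ache and Bche, the muscarinic receptor genes Chrm1, Chrm2 and Chrm3, and the nicotinic receptor subunit genes Chrna4, Chrnb2 and Chrna7. They were found by the gene names written beside the array probes, and each of the 10 was on the array, at 13 of its 39429 gene probes. The array named 23694 genes in all. The choice used names and not levels.

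The study asked how oil components of sweet potato shochu, a distilled spirit, affect mice given the amyloid peptide fragment Aβ25-35, which is used to impair short-term memory. All mice were males of the Slc:ddY strain, an outbred stock, aged 6 weeks, and all were dosed by mouth for 15 days and put through a Y-maze on day 16, after which the hippocampus was taken. The normal control group, NCO, received distilled water by mouth and 5 µL of distilled water, for which the labels give neither route nor day. In the injected control group, ACO, the oral doses were distilled water, and 10 nmol of Aβ25-35 in 5 µL went into a cerebral ventricle on day 8. The shochu oil group, ASO, received the oil by mouth at 2000 mg/kg each day and the same injection. As a model it is limited to 1 injection of a peptide fragment, not amyloid made by the animal itself. RNA of 10 mice in each group was joined into 5 sets of 2 mice, and each group was represented by 1 array. There was therefore no replicate of any group, and no difference below carries a p-value. The only error that could be measured was that between spots of 1 probe on the same array, which holds none of the variation between mice.

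Acetylcholine is made from choline by choline acetyltransferase in cholinergic neurons, which take choline back up through the Slc5a7 transporter. It is split in the synaptic cleft by acetylcholinesterase, the product of Ache, and also by butyrylcholinesterase, the product of Bche. The hippocampus receives most of its acetylcholine from axons of the medial septum and diagonal band, whose cell bodies lie outside the dissected tissue, and its own pyramidal cells and interneurons carry muscarinic receptors, which signal through G proteins, and nicotinic receptors, which are ion channels.

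A signal here is the background-corrected spot brightness, in intensity units, with the 75th percentile brought to the same value on all arrays, and a difference is between log2(signal + 50) on 2 arrays. A probe was taken as well above background where the signal to noise ratio that came with each spot was at least 2.6. Levels of different genes are not compared, since probes differ in their brightness at equal RNA. The arrays had 50.9% to 53.7% of gene probes well above background, with median foreground intensities of 88 to 97 over local backgrounds of 43 to 44. Of 12 marker genes of hippocampal pyramidal and granule cells, 11 were well above background on each array, while Iyd was not. Markers of neighbouring regions were also present, with 5 of 7 striatal genes (Drd2 and Adora2a were not above background) and 8 of 10 thalamic and habenular genes (Gpr151 and Pou4f1 were not). Control RNAs spiked into the labelling differed between arrays by a median of -0.14 (ACO minus NCO, 5 probes), 0.48 (ASO minus ACO, 5 probes) and 0.32 (ASO minus NCO, 6 probes) on the same scale.

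Of the 10 genes, 7 were well above background on NCO and on ACO, and 8 on ASO. Ache, Bche, Chrm1, Chrm3, Chrna4, Chrnb2 and Chrna7 were so on each of the 3 arrays, Chat on ASO only, and Slc5a7 and Chrm2 on none. A gene with more than 1 probe is given by the brighter probe unless said otherwise.

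**Figure D1:**
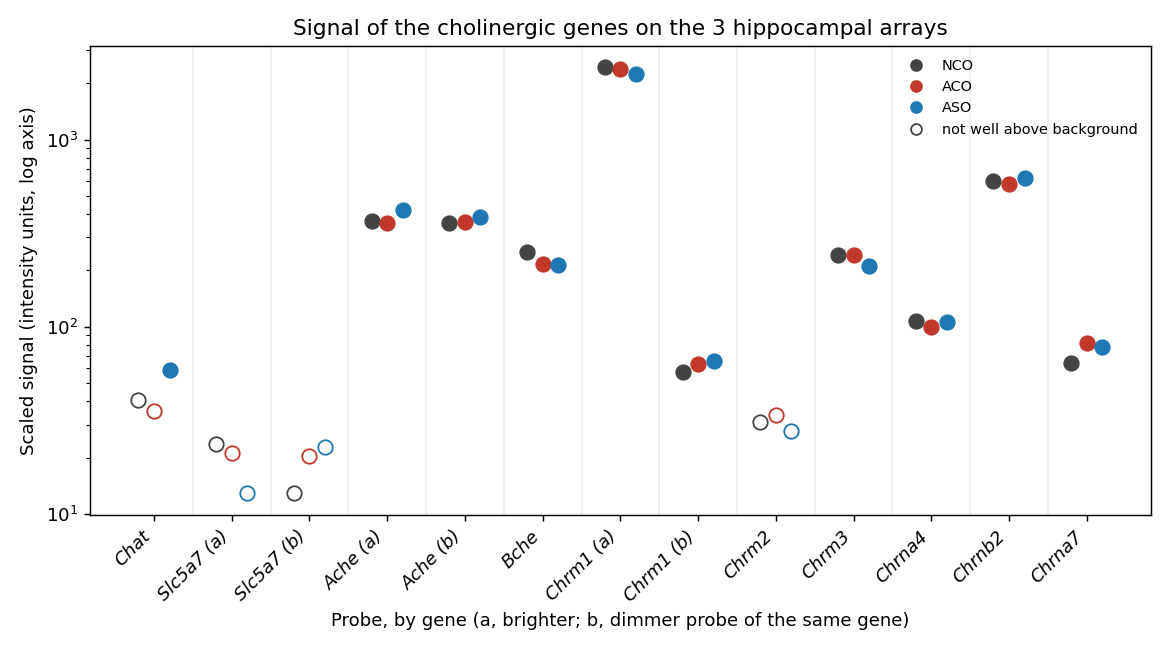
Scaled signal (log axis, intensity units) of the 13 probes of the 10 genes on the NCO, ACO and ASO arrays, 1 point per array, filled where the probe was well above background and open where not. The 3 arrays lie close together for each of the 7 genes measured on all of them, and Chat is filled only on ASO, at 58.5, against 40.6 and 35.6 on NCO and ACO.

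None of the 7 genes measured throughout passed 1.2-fold, the threshold used here for a difference to be counted, in any comparison. Between ACO and NCO, 0 of the 7 entered genes were at least 1.2-fold higher, against 2.76% of 13314 genes, and 0 of 7 were 1.2-fold lower, against 2.72%. Between ASO and ACO the counts were 0 of 7 higher, against 10.1% of 13567 genes, and 0 of 7 lower, against 9.26%. Between ASO and NCO they were 0 of 7 higher, against 10.4% of 13458 genes, and 0 of 7 lower, against 8.31%. At these shares, 0 of 7 is close to the background and does not set the group apart. The comparisons share arrays, so the third follows from the other two.

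**Figure D2:**
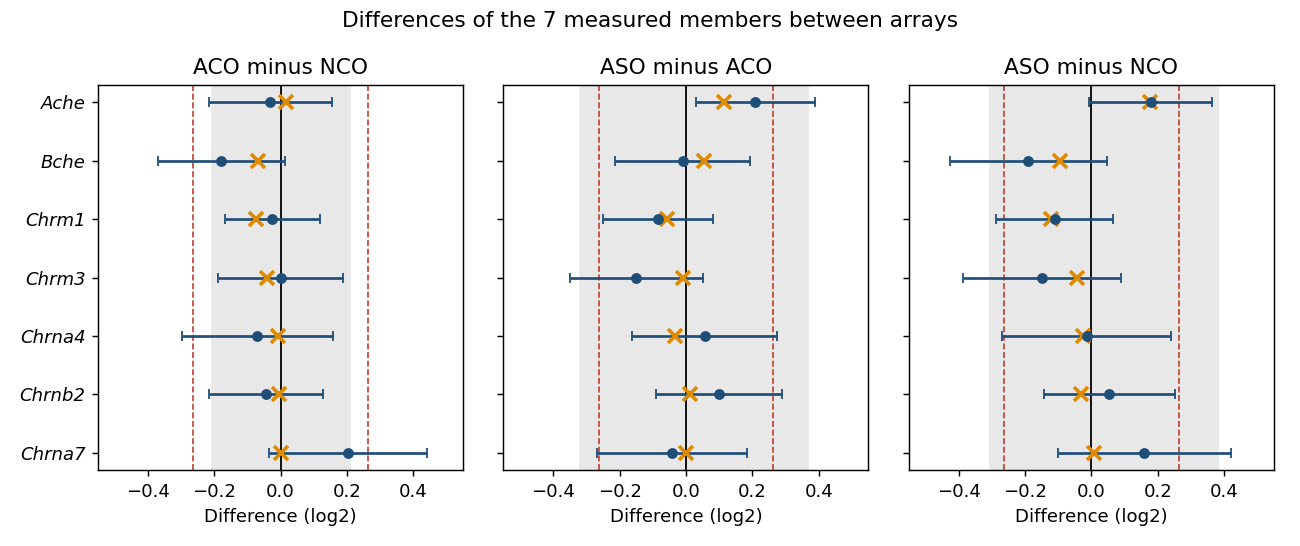
Difference (log2) of the 7 genes measured on all 3 arrays, with bars of 2 spot SDs (the SD of differences between spots of 1 probe, at that brightness), for ACO minus NCO, ASO minus ACO and ASO minus NCO. Crosses give the median difference of the surrounding spots, the grey band the 5th to 95th percentile of all genes and dashed lines 1.2-fold. No point passes 1.2-fold, and only the Ache bar between ASO and ACO clears 0. The Chrna7 points are means of 10 spots, for which these single-spot bars are too wide.

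Their median difference was -0.03 for ACO minus NCO (2 genes above 0, 5 below), -0.010 for ASO minus ACO (3 above, 4 below) and -0.014 for ASO minus NCO (3 above, 4 below). Over all genes entered, the medians were 0.0047, -0.013 and -0.015. The single genes ran from -0.18 (Bche) to 0.20 (Chrna7) for ACO minus NCO, from -0.15 (Chrm3) to 0.21 (Ache) for ASO minus ACO and from -0.19 (Bche) to 0.18 (Ache) for ASO minus NCO. The 5th and 95th percentiles of all genes were -0.21 and 0.21, -0.32 and 0.37, and -0.31 and 0.38, and each of the 7 genes lay inside them in each comparison. The error of a single spot, the SD of differences between spots of 1 probe, had a median of 0.08 to 0.10 over the 251 to 253 probes printed at 10 spots. Ache had the widest range over the 3 arrays, 0.21, and 42.5% of genes had one at least as wide.

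Among genes that make and recover the transmitter, Chat gave 40.6 on NCO, 35.6 on ACO and 58.5 on ASO. The ASO value was the highest of the 3 and the only one well above background, with a signal to noise ratio of 2.81 against 1.60 and 1.47. The foreground of its spot was 70, 62 and 80 in the order NCO, ACO, ASO over local backgrounds of 49, 42 and 37, so the array with the brightest spot also had the darkest surround. On the scale used here, with its added constant, Chat on ASO exceeded ACO 1.27-fold and NCO 1.198-fold, the second just under the 1.2-fold threshold. Each fold sets the bright value against whichever is greater on the dim array, the probe's own value or the dimmest probe well above background. For Chat the probe's own value was the greater on NCO and on ACO, so the folds are measured values and not lower limits. As log2 differences they were 0.34 from ACO and 0.26 from NCO, with spot SDs of 0.11 and 0.13. Chat passed the filter only through the array on which it was high, so these values are a description. Of 153 negative control spots on ASO, 0.654% had a background-subtracted brightness as high as that of the Chat spot. The share was 0% on NCO and on ACO, so this measure does not set ASO apart. Chat rests on a single spot per array, and in bulk tissue fewer cells of a type and less RNA per cell cannot be told apart, here or for any gene that follows.

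Slc5a7, the high-affinity choline transporter of cholinergic terminals, has 2 probes on the array. The first gave 23.6, 21.3 and 12.9 on NCO, ACO and ASO and the second 12.9, 20.4 and 22.8, with signal to noise ratios no higher than 0.727. These lay among the negative controls, of which 4.58% to 85.6% were as bright or brighter, so no level of Slc5a7 was measured. The probes ran in opposite directions from NCO to ASO, which at this brightness has no meaning for the gene.

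The other genes of acetylcholine synthesis, storage and enzyme anchoring were listed as 10 genes, of which 8 entered each comparison. Slc18a3, the vesicular acetylcholine transporter, and Colq, the collagen tail of acetylcholinesterase in muscle, were not above background on any array, while Prima1, the membrane anchor of the brain enzyme, was measured. By their brightest probes, none of the 8 passed 1.2-fold in any of the 3 comparisons. Over all genes, 2.76% to 10.4% were higher and 2.72% to 9.26% lower by that much, so 0 of 8 is close to the background. The medians of the 8 were -0.011 (ACO minus NCO), 0.024 (ASO minus ACO) and 0.076 (ASO minus NCO). The furthest from 0 was Pcyt1a, a rate-controlling enzyme of phosphatidylcholine synthesis, at 0.20 between ASO and ACO. In that comparison dimmer probes went further: those of Chka, a choline kinase, ran from 0.07 to 0.35 where its brightest gave -0.14, and those of Slc44a1, a choline transporter-like protein, ran from -0.18 to 0.34 where its brightest gave -0.04.

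Ache gave 367 on NCO, 358 on ACO and 422 on ASO. NCO and ACO lay together, and ASO was the highest. The difference was -0.03 for ACO minus NCO, 0.21 for ASO minus ACO and 0.18 for ASO minus NCO, with a spot SD of 0.09 in each. Between ASO and ACO it exceeded 2 spot SDs, the only one of the 21 differences of the 7 genes to do so. That SD is of a single spot, which is too wide a measure for Chrna7, a mean of 10 spots whose own error is given below. Spots within 5 rows and columns of it, which belong to other genes, had a median difference of 0.11 in that comparison and of 0.18 for ASO minus NCO. Less its surroundings, the Ache difference was 0.095 for ASO minus ACO and 0.00087 for ASO minus NCO. A second Ache probe gave 356, 362 and 384, the same array highest, with differences of 0.02, 0.08 and 0.10, all within 2 spot SDs. Of all genes entered, 29.2% lay at least as far from 0 as Ache between ASO and ACO.

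Bche gave 251 on NCO, 216 on ACO and 214 on ASO. Both injected groups were below the normal control and close to each other. The difference was -0.18 for ACO minus NCO, with a spot SD of 0.10, and -0.19 for ASO minus NCO, with a spot SD of 0.12, so both were within 2 spot SDs. Between ASO and ACO it was -0.010. Surrounding spots had medians of -0.07 and -0.09 in the comparisons with NCO, the same direction as Bche and smaller.

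The muscarinic receptors fall into those that act through Gq, here Chrm1 and Chrm3, and those that act through Gi, here Chrm2. Chrm1, the main muscarinic receptor of hippocampal pyramidal cells, gave 2431 on NCO, 2389 on ACO and 2249 on ASO. These were in the order NCO, ACO, ASO, with differences of -0.025, -0.09 and -0.11 for ACO minus NCO, ASO minus ACO and ASO minus NCO and spot SDs of 0.07, 0.08 and 0.09. The spots around it had a median of -0.12 for ASO minus NCO. A second, dimmer Chrm1 probe gave 57.6, 63.1 and 65.4, the reverse order, with differences of 0.07, 0.03 and 0.10. The probes of Chrm1 thus disagree in direction, each within 2 spot SDs.

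Chrm3 gave 240.5 on NCO, 240.6 on ACO and 212 on ASO. NCO and ACO were indistinguishable, with a difference of 0.00041, and ASO was lower by 0.15 on the log2 scale than either, within 2 spot SDs (0.10 against ACO, 0.12 against NCO). Surrounding spots differed by -0.0085 between ASO and ACO. Chrm2, the receptor that also acts on cholinergic terminals themselves, gave 31.0, 33.7 and 27.8 with signal to noise ratios of 0.733, 1.25 and 0.800, and had no measured level. Its foreground of 57 to 64 was above the 95th percentile of the negative controls, which was 47 or 48 on each array. The other muscarinic receptors, Chrm4 and Chrm5, were not well above background on any array.

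Among nicotinic subunits, Chrna4 and Chrnb2 together form the most common high-affinity nicotinic receptor of the brain. Chrna4 gave 108 on NCO, 100.1 on ACO and 106 on ASO, with differences of -0.07, 0.06 and -0.01 in the order used above. Chrnb2 gave 601, 581 and 626, with differences of -0.04, 0.10 and 0.05. For both, the ACO array was the lowest of the 3, and each difference was within 2 spot SDs (0.11 to 0.13 for Chrna4, 0.09 to 0.10 for Chrnb2). Chrna4 had the narrowest range of the 7 genes, 0.07 from its lowest to its highest array, and 89.2% of the 13191 genes entered on all 3 arrays had a range at least as wide.

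Chrna7 forms a channel of identical subunits with high calcium permeability and is the receptor subunit to which amyloid-beta peptides have been reported to bind. Its probe was printed at 10 spots on each array, so its spot error could be read directly. Averaged over spots it gave 64.4, 81.7 and 77.8 for NCO, ACO and ASO, with NCO the lowest. Foreground brightness ran from 84 to 98 on NCO (median 92), from 95 to 136 on ACO (median 110.5) and from 91 to 120 on ASO (median 107.5). The spots of NCO and ACO overlapped, and so did those of NCO and ASO and of ACO and ASO.

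The log2 level of Chrna7 averaged 6.84 ± 0.08 (NCO), 7.04 ± 0.13 (ACO) and 7.0 ± 0.08 (ASO; SD over 10 spots of 1 array, not over animals). Spot by spot, the difference was 0.20 ± 0.15 (SD, 10 spots) for ACO minus NCO, and 9 of 10 spots were above 0. For ASO minus NCO it was 0.16 ± 0.13, again with 9 of 10 spots above 0. For ASO minus ACO it was -0.04 ± 0.10, with 3 spots above 0 and 7 below. The standard errors of these means over spots were 0.048 (ACO minus NCO), 0.041 (ASO minus NCO) and 0.032 (ASO minus ACO). Both differences from NCO exceeded 2 such errors and that between ASO and ACO did not. These errors hold none of the variation between mice or arrays. None of the means passed 1.2-fold on this scale. Chrna7 was dim, with a mean signal to noise ratio of 2.65, 4.41 and 4.55, and only 4 of 10 spots on NCO reached 2.6, against 9 of 10 on ACO and on ASO. The added constant of 50 shrinks differences of a gene this dim: with no constant the ACO minus NCO difference was 0.34, and with a constant of 16 it was 0.28, both past 1.2-fold.

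**Figure D3:**
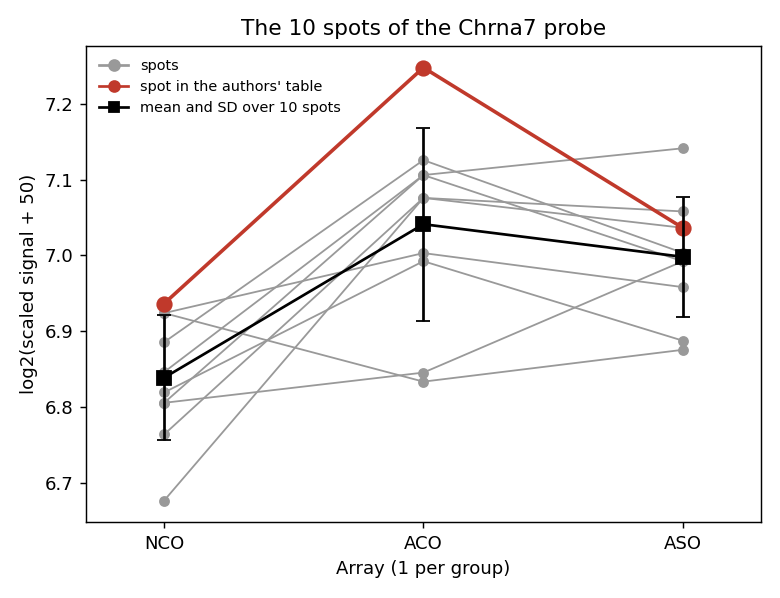
Level of Chrna7, as log2(scaled signal + 50), at each of the 10 spots of its probe (thin lines join the same spot position) on the NCO, ACO and ASO arrays, with the mean and SD over spots in black and the spot found in the authors' deposited table in red. The means are 6.84, 7.04 and 7.0, and the red spot is the highest of the 10 on ACO.

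Chrna7 was the only one of the 10 genes in the authors' deposited table, which lists 475 probes. Each ratio of ACO to NCO in the authors' deposited table was at least 1.51 (144 probes) or at most 0.755 (331 probes). For Chrna7 the authors' deposited table gives 53.8 on NCO, 81.8 on ACO and 65.1 on ASO, hence ratios of 1.52 for ACO over NCO, 0.796 for ASO over ACO and 1.21 for ASO over NCO. These 3 values of the authors' deposited table matched, to within 0.06 intensity units, 1 of the 10 Chrna7 spots and not the mean of the 10. On the scale used here that spot differed by 0.31 for ACO minus NCO and by -0.21 for ASO minus ACO, and it was the furthest below 0 of the 10 spots in the latter. Without it, the mean of the remaining 9 spots was 0.19 for ACO minus NCO, -0.02 for ASO minus ACO and 0.17 for ASO minus NCO. The lower value on ASO than on ACO in the authors' deposited table was that of this spot.

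The same held for other probes printed at 10 spots. Of 27 such probes in the authors' deposited table, 27 matched a single spot, and for 25 of the 27 it was the spot with the most extreme ACO to NCO ratio of the 10 in the table's direction and on the table's scale. C1qc and Tescl were the other 2. For Kcnj6, a potassium channel subunit opened by Gi-coupled receptors such as Chrm2, the authors' deposited table gives an ACO to NCO ratio of 0.724. The Kcnj6 difference was -0.25 at that spot and -0.11 over its 10 spots.

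**Figure D4:**
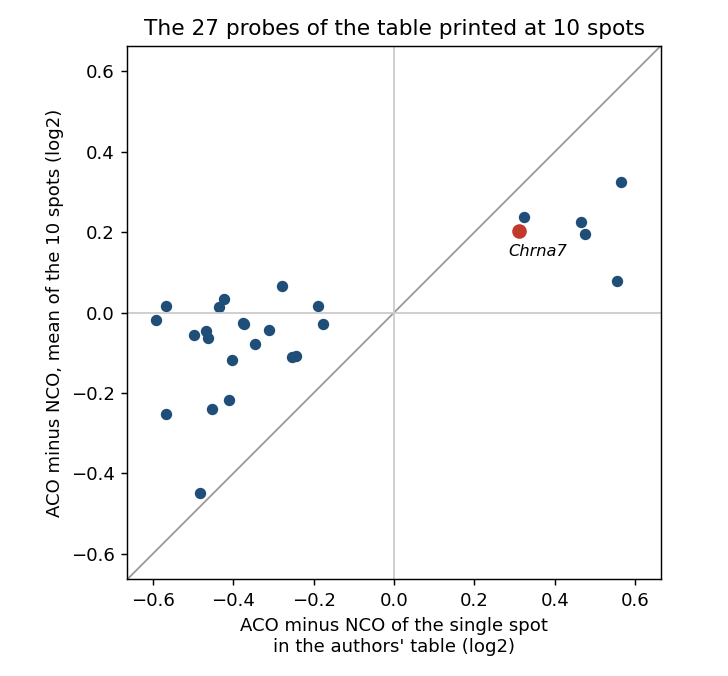
Difference between ACO and NCO (log2) of the 27 probes of the authors' deposited table that were printed at 10 spots, with the single spot that the table holds on the horizontal axis and the mean of the 10 spots on the vertical axis. The grey diagonal marks equality, and Chrna7, in red, lies at 0.31 and 0.20.

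The remaining nicotinic subunits were listed as 13 genes. Of these, 11 were not well above background on any array, among them Chrna3, Chrna5 and Chrnb4, which share a gene cluster and are abundant in the medial habenula. Chrna1, the muscle-type subunit, was above background on pairs of arrays at different probes, with -0.07 for ACO minus NCO and 0.11 for ASO minus ACO, neither past 1.2-fold. Between ASO and NCO its probes opposed each other, the first 1.37-fold higher on NCO and the second 1.199-fold higher on ASO. Chrna2, which marks a class of interneurons of the stratum oriens, was well above background on ASO only. There it exceeded ACO 1.13-fold and NCO 1.14-fold. These folds of Chrna1 and Chrna2 are measured values with the added constant, and not lower limits.

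The arrays did not order the genes in 1 way. ASO was the highest array for Ache and Chrnb2, ACO for Chrm3 and Chrna7, and NCO for Bche, Chrm1 and Chrna4. Some of these orders were not resolved. Chrm3 differed by 0.00041 for ACO minus NCO and Chrna4 by -0.014 for ASO minus NCO, and the dimmer Chrm1 probe was highest on ASO. The genes whose pattern over the 3 arrays was nearest to that of Ache were 2810006K23Rik, Sema5b and Bcl11b, at distances of 0.0030 to 0.0034 in log2 units, among 566 of 10086 genes within 0.05. With 3 arrays many patterns coincide.

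Proteins that fold, assemble or modulate nicotinic receptors were listed as 8 genes, and all 8 were measured. None passed 1.2-fold between ACO and NCO, against 2.76% of all genes higher and 2.72% lower, and their median was 0.02. Between ASO and ACO 2 of the 8 were lower by 1.2-fold or more, where 9.26% of all genes were: Lypd6b, a Ly6-type modulator of nicotinic receptors, at -0.31 as the mean of 10 spots, and Ric3, the chaperone needed for assembly of Chrna7 receptors, at -0.26. Lypd6b gave signals of 362, 383 and 299 on NCO, ACO and ASO, and Ric3 gave 290, 338 and 273. For both genes ACO was the highest array and ASO the lowest. Spots around them had median differences of -0.0031 and -0.03. Ric3 was also 0.19 higher on ACO than on NCO, where a second Ric3 probe gave -0.07. A second Lynx1 probe gave 0.34 between ASO and ACO, where its brighter probe gave -0.13. None of the 8 passed 1.2-fold between ASO and NCO, against 10.4% of all genes higher and 8.31% lower. Lynx1, which restrains nicotinic receptors, was the lowest there at -0.24, with its surroundings at -0.21.

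Signalling partners of the muscarinic receptors were listed as 15 genes, and all 15 were measured. Between ACO and NCO none passed 1.2-fold, against 2.76% of all genes higher and 2.72% lower, and the median was -0.05. Between ASO and ACO 3 of 15 were higher and 2 lower, with a median of 0.06. Over all genes these shares were 10.1% and 9.26%, so the counts are near the background. The higher ones were Plcb4, a phospholipase of the Gq pathway, at 0.35, Prkcb, a protein kinase C, at 0.28 and Gnai2 at 0.27. The lower ones were Kcnq5, a subunit of M-current channels, which muscarinic receptors close, at -0.30 and Plcb1, the phospholipase downstream of Gq, at -0.27. Between ASO and NCO, Gnai2 (0.43) was higher and Plcb1 (-0.38) lower, with a median of 0.02, against 10.4% and 8.31% of all genes.

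Several of these rested on the probe used. Between ASO and ACO the other Plcb1 probes gave 0.02 to 0.15, the other Prkcb probe -0.07 and the other Plcb4 probes -0.10 to 0.38. The other Plcb1 probes gave -0.14 to -0.09 between ASO and NCO, none past 1.2-fold. A second probe of Prkca, another protein kinase C, gave -0.35 between ASO and ACO and -0.27 between ASO and NCO, while its brighter probe, at -0.21 and -0.26, did not pass. Gnai2 and Kcnq5 had 1 entered probe each. Gnai2 is an inhibitory G protein subunit that is not restricted to neurons, and the microglial markers were higher on ASO: 7 of 10 were at least 1.2-fold higher and 1 lower between ASO and ACO, against 10.1% and 9.26% of all genes, and their signals summed to 24110, 23865 and 32416 on the arrays NCO, ACO and ASO. Their part in the Gnai2 difference was not tested.

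**Figure D5:**
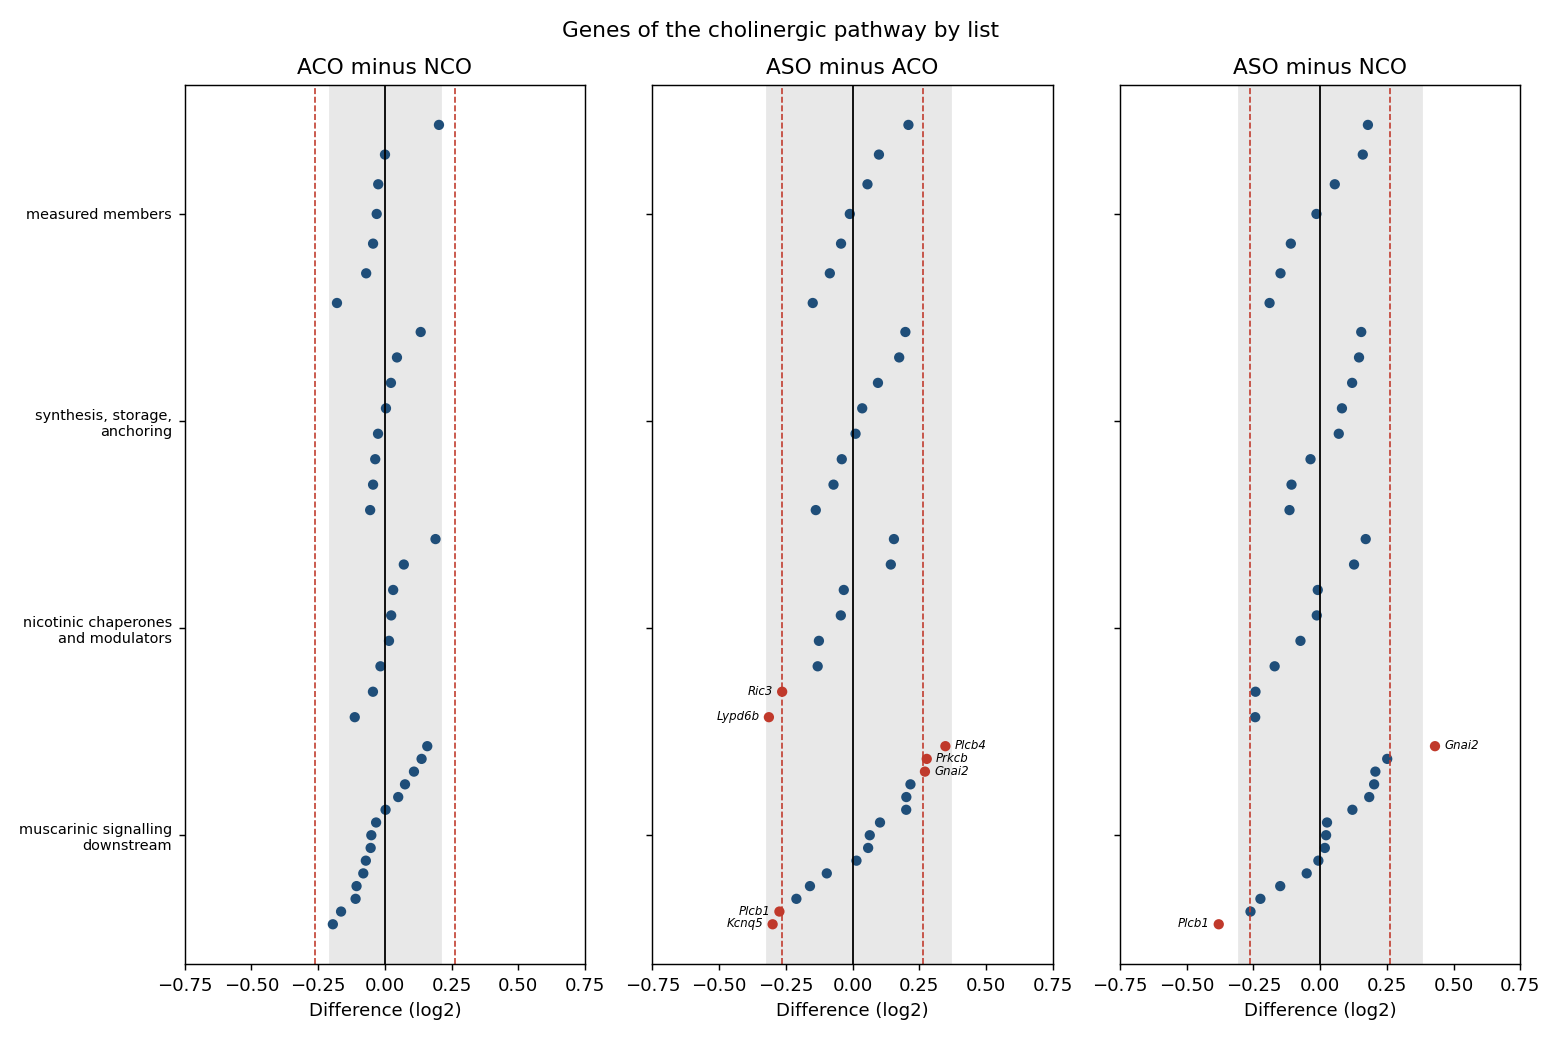
Difference (log2) of each measured gene, 1 point per gene, for the 7 cholinergic genes and 3 lists of related genes, in the comparisons ACO minus NCO, ASO minus ACO and ASO minus NCO. Red, named points are past 1.2-fold (dashed lines), and the grey band is the 5th to 95th percentile of all genes. No point is red between ACO and NCO, while Plcb4 reaches 0.35 between ASO and ACO.

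Genes that mark the cholinergic neurons of the basal forebrain were listed as 9. Of these, Slc5a7, Slc18a3, Lhx8, Gbx1 and Gbx2 were not above background on any array. Isl1 passed on ASO, by its mean over 10 spots, where 1 of the 10 spots reached 2.6. Of the 2 genes that entered the comparisons, Ngfr, the low-affinity neurotrophin receptor, gave 110, 117 and 102 on NCO, ACO and ASO, and differed by 0.06, -0.14 and -0.08. Zic4 gave 61.8, 74.5 and 85.2, and was 0.27 higher on ASO than on NCO, which is past 1.2-fold, as were 10.4% of all genes. Thus 7 of the 9 marker genes, Chat and Slc5a7 among them, were not well above background on NCO or on ACO.

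Markers of other tissues differed between the arrays on which the cholinergic genes were read. Of 9 choroid plexus genes, 8 were at least 1.2-fold higher and 1 lower on ACO than on NCO, against 2.76% and 2.72% of all genes, with a median of 0.51, while the summed signal, which Ttr leads, was 24221, 20467 and 20586 on NCO, ACO and ASO. The thalamic and habenular genes summed to 3781, 4324 and 3740, and the striatal ones to 4001, 4229 and 4484. Astrocyte genes summed to 19559, 19313 and 23535 over 6 genes, and oligodendrocyte genes to 76158, 67111 and 78509 over 7. Of 9 interneuron markers, 8 were measured, and their summed signal was 85574, 81102 and 83585. Among these sums only the thalamic and habenular one was highest on ACO. The signal of Chrna7 was highest on ACO, while that of Chrm3 was indistinguishable between ACO and NCO. The choroid plexus, astrocyte, oligodendrocyte and interneuron sums were lowest on ACO, but a sum follows its brightest genes. Of the choroid plexus sum, Ttr alone gave 20070, 14579 and 15657 on NCO, ACO and ASO, while the other 8 genes were higher on ACO than on NCO. Of the interneuron sum, Cck alone gave 46494, 42823 and 45734. The interneuron genes had a median ACO minus NCO difference of 0.0053, with 4 above 0 and 4 below. The part of tissue makeup in the cholinergic differences was not tested.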

How the data were processed

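Cy3-labelled hippocampal RNA was read on 3 one-colour Agilent 4x44K arrays, 1 per group and all on 1 slide, with 200 ng of total RNA each, per the labels' protocols. Per the file headers, the authors scanned at 532 nm (GenePix 4000B) and measured unnormalized spot and background intensities in GenePix Pro 6.1.0.4. That program also gave the deposited signal to noise score and percent of saturated pixels of each spot. The submitters' processing notes name Agilent Feature Extraction, whose processed signal had been planned for use, but the columns were those of GenePix, so the foreground median was corrected instead. The authors' deposited table gives intensities for 475 probes, which are straight lines of the foreground median with slopes of 1, 0.917 and 0.893 on NCO, ACO and ASO. The scale is thus linear, and the reason for the slopes stays unknown.

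Foregrounds were corrected by local background with normexp in limma 3.58.1 (R 4.3.3) over all spots, scaled to a common 75th percentile (factors 1.06, 0.949 and 0.991), raised by 50 and put on a log2 scale. Spots of 1 probe were averaged, as was their signal to noise ratio. A gene entered a comparison where a probe reached 2.6 on both arrays, and was given by its brightest such probe. Spot error is the median SD of differences over the 40 probes printed at 10 spots that were nearest in brightness. The steps were tested on simulated data. Symbols were updated through RefSeq names where an accession or symbol matched, which left 1788 probes with the name in the files and 7952 without one. No sequences or positions are given, since no genome build is named in the sources used here.

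The rule for named genes was the 10 genes themselves, with the genes past 1.2-fold and the highest and lowest of each list, the 3 genes nearest in pattern, and any list gene not above background. Of the genes first listed, 2 are not reported here. The genes and lists were chosen with earlier results of these data known.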

Additional observations from a re-analysis of the deposited data

How the results depend on the processing

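The number of genes of the group past 1.2-fold was 0 in each comparison, and became 1 in 5 cases. Between ACO and NCO these were a constant of 0 or of 16 (Chrna7), where 9.28% and 7.62% of all genes passed in either direction. Between ASO and ACO it was no filter on dim probes (Chat, which then entered with the other 9), where 14.9% passed. Between ASO and NCO they were a constant of 0 (Chrna7), where 24.5% passed, and scaling to the median (Bche, at -0.26), where 24.7% passed. At these shares, 1 gene is near the background and does not set the group apart. Over all alternatives, the Ache difference ran from 0.095 to 0.24 for ASO minus ACO and from 0.00087 to 0.20 for ASO minus NCO, lowest when the surrounding spots were subtracted. Bche minus its NCO value ran from -0.22 to -0.10 on ACO and from -0.26 to -0.10 on ASO. Chrna7 ran from 0.08 (no background subtraction) to 0.60 (the authors' deposited table) for ACO minus NCO. Of 271 values of single genes, 16 moved by more than the spot error. With scaling to the median, the median of all genes was -0.11 for ASO minus ACO, against -0.013, and -0.09 for ASO minus NCO, against -0.015. The number of measured genes was 6 to 8 under each detection rule. Reading the ratio of signal to noise as its median over spots, a choice made after the data were seen, left Chrna7 unmeasured on NCO. Replicates could not be left out and no paired analysis was possible because each group has 1 array. Dim spots limit Chat, Chrm2, Slc5a7 and Chrna7 most.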
